A study of Mus musculus with 14 samples.

Results

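Fast inhibition in the nervous system is carried by glycine and GABA, and 9 genes that give neurons and glia this chemical identity were followed here in RNA-SEQ of neonatal mouse brain. They were Slc6a5, Slc6a9, Glra1, Glra2, Glrb, Slc32a1, Gad1, Gad2 and Slc6a11, chosen by name, and all 9 were found among the 17927 genes of the counts. The brains were taken at postnatal day 2 (P2) from 7 WT and 7 Capn15 KO mice, all untreated, from 6 litters that are named A to F here after the letters in the column names. Capn15 encodes the cysteine protease calpain-15. The study's lines were made in C57BL/6J mice, its methods name a lacZ-Neo and a FLOXed allele of Capn15, and the allele of these KO brains is not given in the sources used here. There were 2 females and 5 males among the WT brains and 4 females and 3 males among the Capn15 KO brains. The labels give neurons as the cell type, but whole brains were taken and glial genes were well represented, as the summed level of 8 astrocyte and radial glia markers lay between 1289.67 and 1936.68 CPM (counts of a gene per 1000000 counts of its library). A whole brain mixes regions and cell types, so fewer cells of a type and less RNA per cell cannot be told apart.

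Neurons that release glycine take it up with the plasma membrane transporter GlyT2, encoded by Slc6a5, and are found mainly in brainstem, cerebellum and spinal cord. GABA is made from glutamate by the decarboxylases GAD67 and GAD65, encoded by Gad1 and Gad2. Both transmitters are loaded into vesicles by the same carrier, VGAT, the product of Slc32a1. Glycine opens chloride channels made of alpha subunits (Glra1 in the adult form, Glra2 in the fetal form) and the beta subunit (Glrb), which anchors the receptor to gephyrin. Released glycine is also cleared by GlyT1 (Slc6a9), mostly in glia, and GABA by GAT-3 (Slc6a11), mostly in astrocytes. During postnatal development Glra2 gives way to Glra1.

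To show what lies ahead of the genes whose levels are described most closely, the 250 bases upstream of a RefSeq start (GRCm38.p6) are given for 4 of them, read 5′ to 3′ along the gene's strand. They were chosen among the stretches with no base in an exon of the gene in GENCODE M21. The Slc32a1 stretch met this too and is not printed. Slc6a11 and Glrb were the pair whose levels were most closely related across brains, Slc6a5 had the largest fitted difference between genotypes of the 9, and Glra2 lies on the X chromosome. Capitals mark a GC box (GGGCGG) or a TATA box (TATAAA) on either strand.
Slc6a11, chr6:114130991-114131240, plus strand: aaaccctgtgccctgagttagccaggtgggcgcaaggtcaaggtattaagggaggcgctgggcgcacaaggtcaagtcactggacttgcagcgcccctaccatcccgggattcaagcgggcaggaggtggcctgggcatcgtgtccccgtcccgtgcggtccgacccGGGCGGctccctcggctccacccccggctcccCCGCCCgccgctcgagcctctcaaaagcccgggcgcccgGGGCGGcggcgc
Glrb, chr3:80913661-80913910, minus strand: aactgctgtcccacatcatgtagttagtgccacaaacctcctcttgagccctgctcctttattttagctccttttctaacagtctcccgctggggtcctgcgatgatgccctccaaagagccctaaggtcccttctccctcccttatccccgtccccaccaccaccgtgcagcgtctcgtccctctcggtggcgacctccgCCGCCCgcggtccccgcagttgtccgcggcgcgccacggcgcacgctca
Glra2, chrX:165327394-165327643, minus strand: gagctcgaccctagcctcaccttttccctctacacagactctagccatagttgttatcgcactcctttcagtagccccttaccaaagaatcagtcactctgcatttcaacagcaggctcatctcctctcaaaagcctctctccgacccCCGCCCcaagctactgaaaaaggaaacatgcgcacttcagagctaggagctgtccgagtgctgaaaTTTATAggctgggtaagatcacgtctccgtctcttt
Slc6a5, chr7:49911450-49911699, plus strand, the second of its 2 starts: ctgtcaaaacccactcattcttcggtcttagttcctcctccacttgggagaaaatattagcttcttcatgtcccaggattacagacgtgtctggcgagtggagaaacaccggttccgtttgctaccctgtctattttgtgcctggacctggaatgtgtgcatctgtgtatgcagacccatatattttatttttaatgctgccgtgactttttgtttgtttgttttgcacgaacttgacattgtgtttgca
These stretches differ in composition. The Slc6a11 stretch held 71.2% G and C with 25 CpG and 3 GC boxes, and the Glrb stretch 62.4% with 20 CpG and 1 GC box. The Glra2 stretch held 50.4%, 1 GC box and 1 TATA box, and the Slc6a5 stretch 43.6% and neither. This Slc6a5 stretch lies inside the gene, while the stretch ahead of its first start held 50.4% and neither box. The median over all 32851 RefSeq stretches of this length was 52.4%. Over the 11 starts of 8 of the 9 genes (for Glra1 none was read), 5 held GGGCGG, 2 held TATAAA, and 0 held CAGCTG or TAATTA, the cores bound by many neural bHLH and homeodomain factors, all sought on both strands. Of all stretches, 32.7% held GGGCGG, 12.4% TATAAA and 4.84% TAATTA, and CAGCTG was in 4271 of the 32851. These matches describe letters only.

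The libraries held between 37620954 and 70910163 counts, and 3 counts in the smallest of them correspond to 0.0797 CPM, with CPM scaled by TMM factors throughout. None of the 9 genes came near this limit, since the lowest count of any was 87, for Glra1. Capn15, the targeted gene, lay between 25.0 and 27.3 CPM in WT replicates 1 to 6 and between 12.2 and 14.5 CPM in Capn15 KO replicates 1 to 6. In litter F it lay at 18.7 CPM in the library labelled WT replicate 7 and at 20.2 CPM in the library labelled Capn15 KO replicate 7, which goes against these labels. The fitted log2 fold change of Capn15, KO over WT, was -0.81 (standard error 0.118, edgeR quasi-likelihood FDR = 0.0747). Without litter F it was -0.98 (standard error 0.0571, edgeR quasi-likelihood FDR = 1.58e-06). For Slc6a5, whose values turn most on this litter, differences between genotypes and sexes are given with and without it.

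Levels of different genes can be compared only per length, as RPKM (CPM per 1000 exonic bases). Over the 14 brains Slc6a11 was at 47.6 ± 5.85 RPKM (SD, n = 14) and Glra2 at 40.8 ± 1.87. Glrb followed at 27.1 ± 5.52, Gad1 at 25.1 ± 0.758, Slc32a1 at 19.1 ± 1.72 and Gad2 at 15.95 ± 0.819 RPKM. Slc6a9 was at 8.53 ± 0.570, Slc6a5 at 2.21 ± 0.367 and Glra1 at 1.18 ± 0.239 RPKM (SD, n = 14 each). The ranges of Slc6a11 and Glra2 overlapped, as did those of Glrb and Gad1, of Slc32a1 and Gad2, and of Slc6a5 and Glra1, while the other neighbours in this order did not overlap. Within brains, Slc6a5 exceeded Glra1 in all 14 and Slc32a1 exceeded Gad2 in 12. Slc6a11 exceeded Glra2 in 10, and Glrb exceeded Gad1 in 10. The order in the upper part depends on the length used. With the longest coding transcript in place of all exons Gad1 was at 57.3 ± 1.73 RPKM and Glrb at 41.7 ± 8.48 (SD, n = 14 each), so that Gad1 overlapped Slc6a11 and Glrb overlapped Glra2, and the order from Slc32a1 down was as before.

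The 9 genes also differed in how much they varied between brains. Gad1 was the steadiest, with a coefficient of variation of 3.01% over the 14 brains, and only 3.53% of the 15227 genes with a mean of at least 1 CPM varied less. Glra2 (4.57%), Gad2 (5.14%) and Slc6a9 (6.68%) were also below the median gene, at 8.04%. Slc32a1 (9.01%), Slc6a11 (12.3%), Slc6a5 (16.6%), Glra1 (20.2%) and Glrb (20.3%) were above it. For Glra1, with 87 to 203 counts, counting error forms part of this spread.

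**Figure D1:**
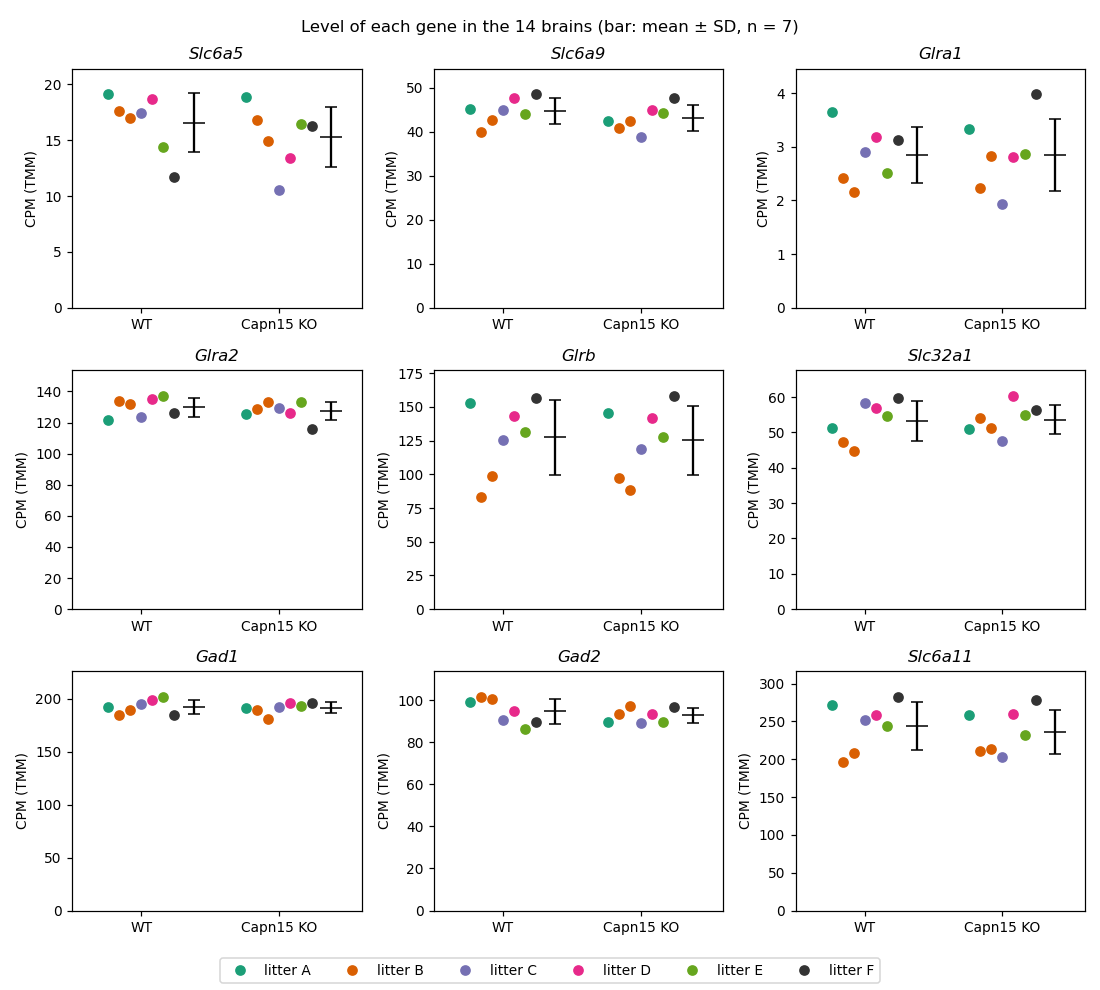
Level of each of the 9 genes (CPM, vertical axis from 0) in the 7 WT and 7 Capn15 KO brains, each point 1 brain coloured by litter, with the mean and SD of each genotype as a bar. The genotypes overlap for every gene, and the 4 litter B brains sit lowest for Glrb, between 83.4 and 98.5 CPM.

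The first comparison asked whether the loss of Capn15 changed the RNA of these genes. None of the 9 was called: 0 of 9 had an FDR under 0.05 when edgeR fitted genotype, litter and sex by quasi-likelihood, where 0.00558% of all genes did (1 of 17927). At an unadjusted p under 0.05 it was 1 of 9 (Slc6a9), against 5.14% of all genes. The likelihood ratio test of edgeR, DESeq2 and limma-voom also called 0 of the 9, and over all genes they called only 34, 22 and 1. WT and Capn15 KO values overlapped for each of the 9, and the share of all genes that overlapped was not computed. All 9 fitted log2 fold changes were below 0, between -0.19 and -0.0050 with a median of -0.031, while 48.6% of all genes were below 0 and their median was 0.0015, but for Slc32a1 the sign turned without sex in the model.

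Among the glycine transporters, Slc6a5 (ENSMUSG00000039728) lies on the plus strand of chromosome 7 of GRCm38 from 49910146 to 49963856, with 16 exons in its longest coding transcript. In WT brains it ran from 11.7 CPM through a median of 17.5 to 19.1 CPM, and in Capn15 KO brains from 10.5 through 16.3 to 18.8 CPM. The lowest WT brain was replicate 7 of litter F and the lowest Capn15 KO brain was replicate 4 of litter C, and the groups overlapped over almost their whole ranges. The means were 16.6 ± 2.64 and 15.3 ± 2.69 CPM (SD, n = 7 each). With brains matched by replicate number, the level was lower in the Capn15 KO brain in 5 of 7 pairs of 1 litter. Pairs 2 and 3 are both of litter B, where the number alone sets the match, so the 7 pairs come from 6 litters. The fitted log2 fold change was -0.19 (standard error 0.0928, unadjusted p = 0.0648, edgeR quasi-likelihood FDR = 0.985). Without covariates the difference in log2 CPM was -0.12 (two-sided exact permutation test, p = 0.425, n = 7 each). It was -0.21 without litter F (exact permutation test, p = 0.130, n = 6 each), -0.20 without WT replicate 7 and -0.030 without Capn15 KO replicate 4.

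The size of the Slc6a5 difference depended on single litters. The difference in log2 CPM, Capn15 KO minus WT, was -0.73 in litter C and 0.48 in litter F, where it rests on the labels. Without litter F the fitted log2 fold change was -0.31 (standard error 0.0589, unadjusted p = 0.000133, edgeR quasi-likelihood FDR = 0.199). It was also -0.31 without either of the litter F libraries (WT replicate 7, FDR = 0.207, or Capn15 KO replicate 7, FDR = 0.197). Without either of the litter C libraries (WT replicate 4 or Capn15 KO replicate 4) it was -0.082. Outside litter F all pairs were of opposite sex, so the genotype and sex differences of Slc6a5 there rest on the same pairs. Slc6a5 is among the genes that the study lists as changed in these same brains, so its direction here is not independent evidence. The study's edgeR model, with sex and litter as variables, called it lower in Capn15 KO at an FDR under 0.05 and with a larger fold change. The fit here did not call it, and Capn15 too is listed there with a larger decrease. The reason for this disagreement was not tested. Markers of brain regions were set beside it. The 15 Hox genes of the marker list, which mark hindbrain and spinal cord, were all below 0 between genotypes (median -0.39), with 3 at an unadjusted p under 0.05 and 0 at an FDR under 0.05, and their summed level was lowest in the same 2 brains as Slc6a5, at 9.84 CPM in Capn15 KO replicate 4 and 23.5 CPM in WT replicate 7. It was highest in Capn15 KO brains too, at 57.7 and 55.9 CPM in replicates 3 and 2, against at most 49.1 CPM in WT, so the genotypes overlapped. Hoxb3 and Hoxc4 of this list are also among the genes that the study lists as lower in these Capn15 KO brains. All 5 forebrain markers were above 0 (median 0.13), with 2 at an unadjusted p under 0.05, 0 at an FDR under 0.05, and sums of 67.1 to 88.4 CPM in WT and 70.9 to 88.9 CPM in Capn15 KO. The part of these regions in the Slc6a5 difference was not tested.

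Slc6a9 (ENSMUSG00000028542) lies on the plus strand of chromosome 4 from 117834506 to 117875198, with 14 exons. Ccdc24 and B4galt2 overlap it on the other strand, so its count is uncertain if strand was ignored in the counting. WT brains ran from 39.8 through a median of 44.9 to 48.5 CPM and Capn15 KO brains from 38.8 through 42.4 to 47.7 CPM, with the low end held by litter B in WT and by litter C in Capn15 KO. The log2 fold change was -0.072 (standard error 0.0315, unadjusted p = 0.0390, edgeR quasi-likelihood FDR = 0.954), and it was -0.044 without either brain of litter C (WT replicate 4 or Capn15 KO replicate 4). Unlike Slc6a5, the transporter of glycinergic terminals, it varied little between brains, so that the ratio of Slc6a9 to Slc6a5 (in RPKM) lay between 3.15 and 5.82, highest in the library labelled WT replicate 7.

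The fitted differences of the receptor subunits were near their standard errors or smaller. Glra1 (ENSMUSG00000000263, chromosome 11, 55514238 to 55608198, minus strand, 9 exons) had means of 2.85 ± 0.517 CPM in WT and 2.85 ± 0.673 CPM in Capn15 KO (SD, 7 brains each). Its values ran from 2.15 through a median of 2.89 to 3.64 CPM in WT and from 1.93 through 2.83 to 3.98 CPM in Capn15 KO. The highest and the lowest of the 14 values were thus both Capn15 KO brains, replicates 7 and 4. The log2 fold change was -0.059 with a standard error of 0.104, the widest of the 9.

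Glra2 (ENSMUSG00000018589, chromosome X, 165129017 to 165327393, minus strand, 9 exons) ran from 121.6 through 132.0 to 137.3 CPM in WT and from 115.8 through 128.7 to 133.1 CPM in Capn15 KO. The library labelled Capn15 KO replicate 7 was lowest, and the other 13 brains lay within the span of the WT group. The log2 fold change was -0.031 (standard error 0.0295). Glra2 exceeded Glra1 in every brain, and the ratio of their RPKM was 36.2 ± 7.68 in WT and 36.1 ± 9.48 in Capn15 KO (SD, n = 7 each). This ratio of the fetal to the adult subunit was lowest, at 22.3, in the library labelled Capn15 KO replicate 7 and highest, at 51.4, in Capn15 KO replicate 4.

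Glrb (ENSMUSG00000028020, chromosome 3, 80843599 to 80913660, minus strand, 10 exons), which the alpha subunits join, ran from 83.4 through 132 to 156 CPM in WT and from 88.1 through 127 to 158 CPM in Capn15 KO. Both genotypes covered a similar range, with litter B at the low end and litter F at the high end of each. The log2 fold change was -0.024 (standard error 0.0388), and the RPKM ratio of Glrb to Glra2 was 0.667 ± 0.160 in WT and 0.671 ± 0.165 in Capn15 KO (SD, n = 7 each).

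The genes for making and loading GABA had the smallest fitted differences. Gad1 (ENSMUSG00000070880, chromosome 2, 70553072 to 70602014, plus strand, 17 exons) ran from 185 through 193 to 202 CPM in WT and from 181 through 193 to 197 CPM in Capn15 KO. The 2 groups were nearly superimposed, and the log2 fold change was -0.0050 (standard error 0.0260). Gad2 (ENSMUSG00000026787, chromosome 2, 22622205 to 22693874, plus strand, 16 exons) ran from 86.3 through 94.9 to 101.5 CPM in WT and from 89.1 through 93.6 to 97.5 CPM in Capn15 KO, with all Capn15 KO values inside the WT range. Its log2 fold change was -0.019 (standard error 0.0322). The RPKM of Gad1 was 1.57 ± 0.137 times that of Gad2 in WT and 1.59 ± 0.0837 times in Capn15 KO (SD, n = 7 each). Slc32a1 (ENSMUSG00000037771, chromosome 2, 158610767 to 158615748, plus strand, 2 exons), whose product fills vesicles with either transmitter, ran from 44.8 through 54.5 to 59.8 CPM in WT and from 47.6 through 54.0 to 60.4 CPM in Capn15 KO. The lowest WT brains were those of litter B, the lowest Capn15 KO brain was that of litter C, and the log2 fold change was -0.016 (standard error 0.0451).

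The astrocyte GABA transporter Slc6a11 (ENSMUSG00000030307, chromosome 6, 114131241 to 114249952, plus strand, 14 exons) ran from 196 through 252 to 282 CPM in WT and from 203 through 232 to 278 CPM in Capn15 KO. Litter B held the low end in WT, litter C the lowest Capn15 KO brain, and litter F the high end of both. The means were 245 ± 31.7 and 236 ± 29.2 CPM (SD, n = 7 each), and the log2 fold change was -0.068 (standard error 0.0371, unadjusted p = 0.0895, edgeR quasi-likelihood FDR above 0.999). Single litters moved it, to -0.0025 without either brain of litter C (WT replicate 4 or Capn15 KO replicate 4) and to -0.12 without either brain of litter D (WT replicate 5, FDR = 0.406, or Capn15 KO replicate 5, FDR = 0.407).

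**Figure D2:**
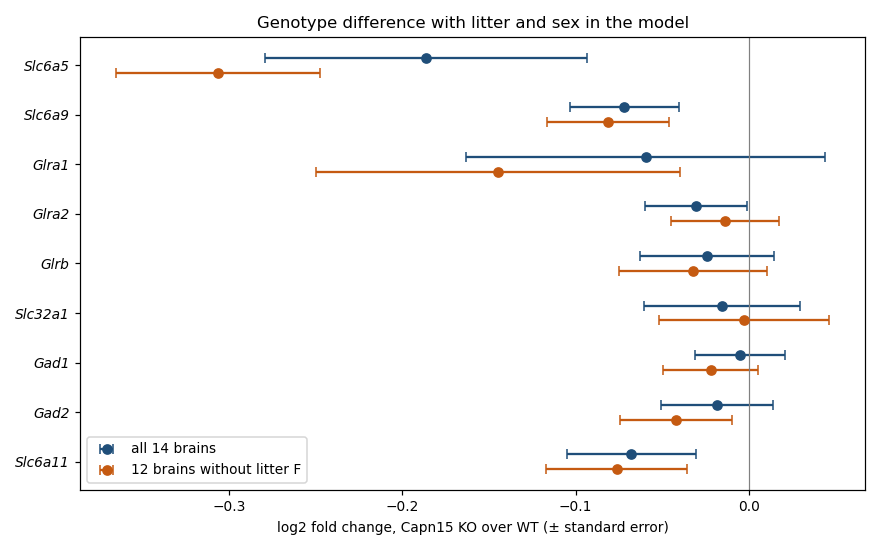
Fitted log2 fold change of each gene, Capn15 KO over WT, with litter and sex in the model (horizontal axis), points with bars of 1 standard error, over all 14 brains and over the 12 brains without litter F. Slc6a5 lies farthest from 0, at -0.19 and -0.31, and all 9 genes lie at or below 0 in both fits, none of them with an FDR under 0.05.

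Of the genes that overlap the 9 in the annotation, Ccdc24 and B4galt2 beside Slc6a9 were in the counts, while Gm17114, also beside Slc6a9, those on the other strand of Glra1, Slc32a1, Gad1 and Slc6a11, and Mir3967 and Gm23636 within Gad2, were not used here.

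The wider pathway was described with 4 lists of other genes, and 0 genes of any of them had an FDR under 0.05 between genotypes. In the list of other GABA and glycine transport and metabolism genes, 3 of 21 were lower and 0 higher in Capn15 KO at an unadjusted p under 0.05, where 2.26% of all genes were lower and 2.88% higher, and the list median was -0.020. The 3 were Slc6a12, the betaine and GABA transporter (log2 fold change -0.43, standard error 0.105, edgeR quasi-likelihood FDR = 0.466), Slc7a10, an amino acid exchanger of astrocytes (-0.18), and Slc6a13, the GABA transporter GAT-2 (-0.14, FDR = 0.475 from the same test). Of the 3, Slc6a12 is also among the genes that the study lists as lower in these same Capn15 KO brains. Markers of the coverings and the choroid plexus of the brain were set beside the 3 genes. Of the 5 leptomeninges markers, of which Slc6a13 itself is 1, 3 were lower at an unadjusted p under 0.05, or 2 of 4 without Slc6a13, and the sum of the 5 was 97.5 to 124.6 CPM in WT and 97.1 to 122.2 CPM in Capn15 KO. Of the 6 choroid plexus markers all were below 0 (median -0.21) and 5 were lower at an unadjusted p under 0.05, with sums of 55.7 to 74.1 CPM in WT and 48.6 to 66.5 CPM in Capn15 KO. In both lists 0 markers had an FDR under 0.05, and the part of these cells in the result was not tested.

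Of 9 further receptor subunits and scaffold genes 8 were in the counts, without Glra4, and 0 of 8 had an unadjusted p under 0.05, with a median of 0.020. Glra3, an alpha subunit, was at -0.087, and the adhesion protein gene Nlgn2 was at 0.083. Transcription factors of inhibitory lineages were listed separately for hindbrain and spinal cord and for forebrain. In the first list 2 of 18 were lower and 0 higher at an unadjusted p under 0.05, with a median of -0.052, and the 3 with the lowest p were Lhx5 (-0.18), Pax8 (-0.22) and Gbx1 (-0.18). In the second list 0 of 13 were lower and 2 higher, with a median of 0.062, and the 3 were Dlx2 (0.20), Dlx1 (0.11) and Gsx2 (0.33). In both lists 0 genes had an FDR under 0.05.

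The sexes were compared in the same model, since they were unevenly spread over the genotypes. Of all genes 12 (0.0669%) had an FDR under 0.05, and 0 of the 9 were among them. At an unadjusted p under 0.05 it was 1 of the 9, Slc6a5, where 5.04% of all genes were. Slc6a5 lay at 17.5 and 18.7 CPM in the 2 WT females, from 11.7 to 19.1 CPM in the 5 WT males, from 14.9 to 18.8 CPM in the 4 Capn15 KO females and from 10.5 to 16.3 CPM in the 3 Capn15 KO males. The 4 lowest values were those of males, and the sexes overlapped. The log2 difference, male over female, was -0.25 (standard error 0.0998, unadjusted p = 0.0258, edgeR quasi-likelihood FDR = 0.927). Without litter F it was -0.29 (standard error 0.0589, unadjusted p = 0.000213, edgeR quasi-likelihood FDR = 0.137). Outside litter F the WT and Capn15 KO brains of a pair were always of opposite sex. The sex and genotype differences without litter F thus come from the same pairs and are not separate results. In log2 CPM, Capn15 KO minus WT was -0.73 in litter C and -0.48 in litter D, where the Capn15 KO brain was male. This lay between -0.19 and 0.19 in litters A, B and E, where the Capn15 KO brain was female. Of the 15 Hox genes, 14 had an unadjusted p under 0.05 and were lower in males, though 0 had an FDR under 0.05. These genes were read in the same brains and are not independent of each other. Both brains with the lowest Hox sums, Capn15 KO replicate 4 and WT replicate 7, were male, and the part of the Hox genes in the difference was not tested. Glra2, on the X chromosome, differed by -0.0089 (standard error 0.0319).

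Whether the genotype difference itself depended on sex could be estimated only through litter F, because in every other pair the WT and Capn15 KO brains were of opposite sex. The interaction was called for 1 gene, Capn15 itself (0.00558%), and for 0 of the 9 genes in the quasi-likelihood fit of edgeR (FDR under 0.05), while 1 of the 9, Slc6a5, had an unadjusted p under 0.05, where 6.85% of all genes did. For Slc6a5 it was 1.57 on the log2 scale (standard error 0.301, unadjusted p = 0.000130, FDR = 0.211). The likelihood ratio test of edgeR gave it an FDR of 0.00225 and called 48 genes (0.268%). Since the term rests on the 2 libraries whose Capn15 levels go against their labels and could not be fitted without them, sex and litter F cannot be told apart here.

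The litters were also compared, in a test chosen after the values were seen. With genotype and sex in the model, 5 of the 9 genes differed between litters (FDR under 0.05, quasi-likelihood fit of edgeR), where 29.6% of all genes did. These were Glrb (FDR = 1.43e-05), Slc6a11 (FDR = 0.000465), Slc6a9 (FDR = 0.0183), Glra1 (FDR = 0.0331) and Slc32a1 (FDR = 0.0366). The other 4, Slc6a5, Glra2, Gad1 and Gad2, had FDR values of 0.279, 0.165, 0.391 and 0.151. For Glrb only 39 of all genes had a lower p. The fitted range over litters on the log2 scale was widest for Glrb (0.78) and Glra1 (0.66) and narrowest for Gad1 (0.087).

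In litter A the 2 Glrb levels were 145 and 153 CPM, in litter C 118.8 and 125.1, in litter D 142 and 143, in litter E 127 and 132, and in litter F 156 and 158 CPM. The 4 brains of litter B, 2 of each genotype, lay at 83.4, 88.1, 97.0 and 98.5 CPM. Littermates of different genotype thus lay close together, and every litter B brain lay below the other 10, a pattern that 9.77% of all genes showed. For 0 of the 9 genes did every litter B brain lie above the other 10, as for 7.45% of all genes. The mean of the other 10 brains was 1.53 times that of litter B for Glrb, 1.26 times for Glra1 and 1.23 times for Slc6a11. For Gad1 it was 1.04 times, and for Slc6a5, Glra2 and Gad2 the litter B mean was the higher one.

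Markers of several cell types moved with litter B. The summed level of the 8 astrocyte and radial glia markers was 1289.67 to 1453.91 CPM there and 1620.81 to 1936.68 CPM in the other brains, and that of the 6 oligodendrocyte lineage markers 330.002 to 367.66 and 383.5 to 561.8 CPM. The 18 hindbrain inhibitory lineage factors summed to 105.5 to 120.5 CPM in litter B and 77.2 to 95.1 CPM elsewhere, and the 13 forebrain factors to 302 to 332 and 224 to 291 CPM. The 7 neuron markers overlapped, at 6377 to 6611 and 6541 to 7008 CPM, and no marker was at 0 in all brains. The 5 microglia markers summed to 77.1 to 91.0 CPM in litter B and 92.9 to 108.2 CPM elsewhere, and the 6 erythroid markers to 197 to 323 and 31.1 to 200.1 CPM. Their part in the litter result was not tested. Without litter B, 196 of all genes (1.09%) and 1 of the 9, Glrb (FDR = 0.0256), were called. Without litter F, 4936 genes (27.5%) and 3 of the 9 were called, namely Slc6a5 (FDR = 0.0173), Glrb and Slc6a11.

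**Figure D3:**
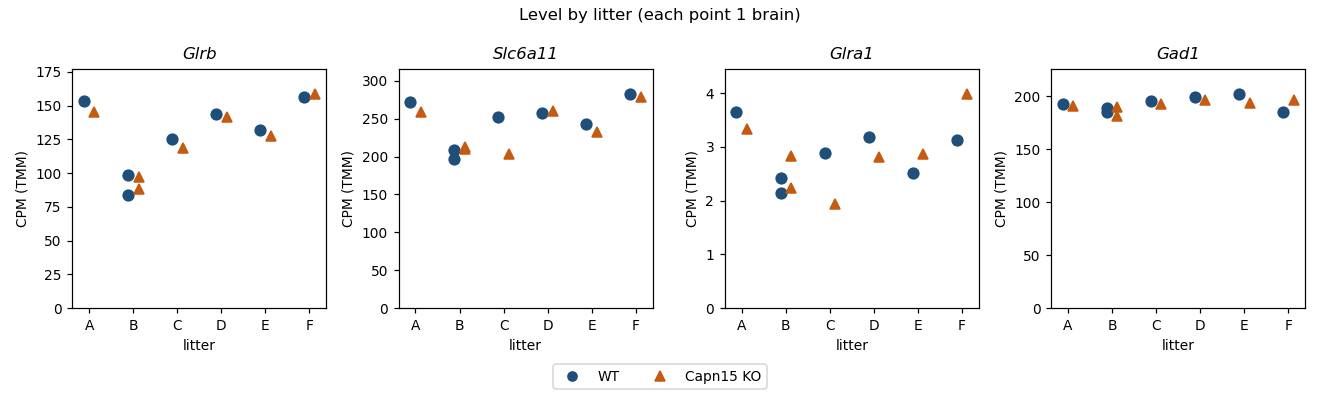
Levels (CPM, vertical axis from 0) of Glrb, Slc6a11, Glra1 and Gad1 in the 6 litters, with WT brains as circles and Capn15 KO brains as triangles. For Glrb the 4 litter B brains lie below the other 10, and for Gad1 the litters lie between 181 and 202 CPM.

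How the 9 genes varied with each other was described by the correlation of log2 CPM over the 14 brains, taken as deviations from the mean of the brain's genotype, for all 36 pairs. Brains of 1 litter are not independent, so the permutation p-values are too small to that extent. After Benjamini-Hochberg adjustment over the 36 pairs, 8 had a p under 0.05, all of them positive and all among Slc6a9, Glra1, Glrb, Slc32a1 and Slc6a11. The closest was Glrb with Slc6a11, at a Pearson's r of 0.923 (permutation p = 1e-05, the smallest that 100000 permutations can give, adjusted p = 0.00018) and a Spearman's rho of 0.943 (permutation p = 1e-05, adjusted p = 0.00036). Without the 2 brains farthest from the median of Glrb (WT replicate 2 and Capn15 KO replicate 3) its r was 0.923, and within litters, after subtracting the fitted litter, sex and genotype, it was 0.496. Slc6a9 with Slc6a11 had an r of 0.884 (permutation p = 1e-05, adjusted p = 0.00018) and a rho of 0.881 (permutation p = 6e-05, adjusted p = 0.00108), with r = 0.812 without WT replicate 2 and Capn15 KO replicate 7 and 0.798 within litters. Of the 8 pairs, Glra1 with Glrb changed sign within litters, from 0.681 to -0.19. The 5 genes of these pairs were those called between litters, and the share among pairs of other genes was not computed. Higher r values were found outside the 9 genes. The 5 genes most like Glrb lay at 0.992 to 0.997, and those most like Slc6a11 at 0.980 to 0.984.

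Slc6a5, the transporter of the glycinergic terminal, had no pair with an adjusted p under 0.05, and its r values lay between -0.13 and 0.41. Within litters, as a description, its r was -0.74 with Glra2, 0.70 with Gad2, 0.67 with Gad1 and 0.60 with Glra1. Among the pairs, litter F held the highest difference in log2 CPM, Capn15 KO minus WT, for Slc6a5 (0.48), Gad1 (0.086) and Gad2 (0.107). It held the lowest for Glra2 (-0.12), and the part of litter F in these r values was not tested. Gad1 and Gad2, which encode the same enzyme activity, had an r of -0.45 (permutation test, adjusted p = 0.236), and within litters the sign turned, to 0.144. Glra2 was negative with Glra1 (r = -0.62, permutation p = 0.0188, adjusted p = 0.0677), with a rho of -0.52 (permutation p = 0.0593, adjusted p = 0.152), and without Capn15 KO replicates 4 and 7 its r was -0.50. Without litter B, 4 of the 36 pairs had an adjusted p under 0.05, and without litter F 7 did.

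**Figure D4:**
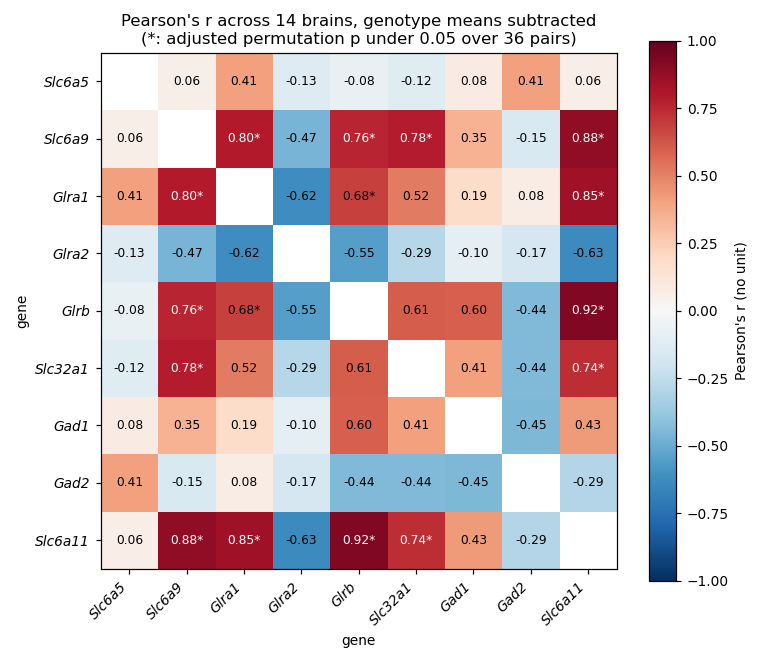
Pearson's r (no unit, colour from -1 to 1) for each pair of the 9 genes over the 14 brains after subtracting genotype means, with an asterisk where the adjusted permutation p over 36 pairs is under 0.05. The 8 marked pairs join Slc6a9, Glra1, Glrb, Slc32a1 and Slc6a11, and Slc6a5 has no marked pair.

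The genes whose levels ran most like those of Slc6a5 and Gad1 were sought among 15227 genes, as a description over the same 14 brains. For Slc6a5 they were Serpinb1b (r = 0.859), Hoxb7 (0.821), Rwdd2b (0.818), Chrna4 (0.817) and Adamts16 (0.810). For Gad1 they included Snx27 (r = 0.894), Tspyl5 (0.880), Chrm5 (0.872) and Fdft1 (0.872). Chosen after the values were seen, Glrb ran most like Palm3 (r = 0.997) and Gpr37l1 (0.994), and Slc6a11 most like Sncb (0.984) and Mobp (0.982). Serpinb1b, like Slc6a5, is among the genes that the study lists as lower in these Capn15 KO brains.

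Because glycinergic neurons lie caudally, Slc6a5 was also set beside the summed level of the 15 Hox genes in each brain, 1 of 4 such relations computed, all chosen after the values were seen. Pearson's r on the log2 scale, with genotype means subtracted, was 0.76 (permutation p = 0.00273, adjusted p = 0.0109) and Spearman's rho 0.495 (permutation p = 0.075, adjusted p = 0.229). Without the 2 brains farthest from the median of the Hox sum, WT replicate 7 and Capn15 KO replicate 4, r was 0.248, so r over all brains leaned on those brains. Over the 12 brains without litter F r was 0.764 (permutation p = 0.0083, adjusted p = 0.0332). Without Capn15 KO replicates 3 and 4 as well, the farthest from the median there, it was 0.58. For Glra1, Slc32a1 and Gad1 the r values were 0.185, 0.0071 and -0.23, with adjusted permutation p-values of 0.707, 0.982 and 0.707.

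**Figure D5:**
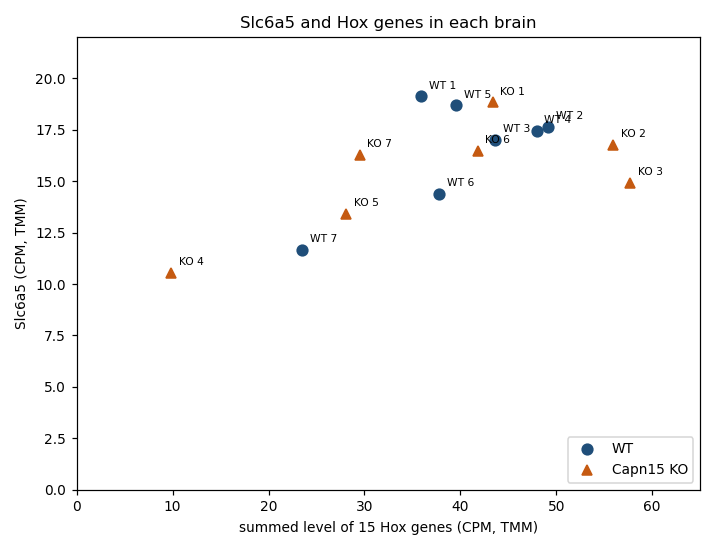
Slc6a5 level (vertical axis) against the summed level of 15 Hox genes (horizontal axis), both in CPM from 0, with 1 labelled point for each of the 7 WT (circles) and 7 Capn15 KO brains (triangles). Capn15 KO replicate 4 (9.84 and 10.5 CPM) and WT replicate 7 (23.5 and 11.7 CPM) are lowest on both axes. Among the other 12 brains Pearson's r was 0.248, taken on the log2 scale after subtracting genotype means and not on the plotted values.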

How the data were processed

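RNA of 14 whole P2 brains was sequenced after ribosomal RNA depletion. The labels name a stranded TruSeq kit and featureCounts, the study's methods ScriptSeq and HTSeq-count. The authors trimmed reads, aligned them with STAR to GRCm38, filtered genes by a rule not given in the sources used here, and deposited raw counts per gene; annotation release and strand setting are likewise not given. Genotype came from the labels, and litter (as the letter is read here) and sex from the column names. Of 17927 genes 17909 matched GENCODE M21, which gave positions and exon lengths.

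Counts were fitted over all genes with edgeR 4.0.16 in R 4.3.3 (quasi-likelihood test, TMM factors, genotype, litter and sex, no filter on low counts, Benjamini-Hochberg FDR under 0.05). The likelihood ratio test, DESeq2 1.42.0, limma-voom 3.58.1, other scalings and covariates, and each library left out were alternatives. The fit was tested on simulated data. Log2 CPM used a prior count of 2. Exact permutation (3432 regroupings, smallest p 0.000583) and sign-flip tests (7 pairs, smallest p 0.0156) were two-sided. Correlations used Python 3.11.15 and scipy 1.17.1, figures matplotlib 3.10.9. Named genes were the 9 genes, Capn15, in each pathway list those past the FDR or else the 3 with the lowest p, and the 5 with the highest r with Slc6a5 and with Gad1; some that this rule names are not reported here. The 9 genes and all lists were chosen with earlier results of these data known.

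Same-numbered WT and Capn15 KO brains share a litter by the column names and so are paired, in litter B by the number alone. The correlations of their deviations lay between -0.468 and 0.443, 4 of 7 over 0.1. No 2 libraries agreed within sampling noise. Depth limits cover counting error only, since PCR copies are not independent molecules.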

Additional observations from a re-analysis of the deposited data

Results flagged for a closer look

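Glra2 in the library labelled Capn15 KO replicate 7 stood apart from the other 6 Capn15 KO brains. Its level of 115.8 CPM was the lowest, the nearest was 125.7 CPM, and the gap on the log2 scale was 0.587 of the range of the group, above Dixon's 95% critical value for 7 samples. Of 18 groups tested (9 genes in each genotype) this was the only one, and chance alone gives about 0.9.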

How the results depend on the processing

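In every fit run, 0 of the 9 genes differed between genotypes at an FDR under 0.05. Over all genes the count of 1 became 34 with edgeR's likelihood ratio test, 22 with DESeq2, 2 without sex, 7 without litter F and 0 on library totals without TMM factors. Blocking on replicate number rather than litter gave 0, and this pairing changed no call among the 9 genes, Slc6a5 being at -0.19. With single libraries left out it lay between 0 and 7. The likelihood ratio test called 36 genes between the sexes in place of 12, and the genotype by sex term for 1 of the 9. The litter test called 196 genes in place of 5301, and 1 of the 9 in place of 5, without litter B, and 3 of the 9 without litter F. Without litter B 4 in place of 8 correlated pairs were called. The causes were not tested.

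Log2 fold changes that lay near 0 changed sign. Slc32a1 was at 0.0096 with genotype alone and at 0.013 without sex. With single libraries left out, the fitted value lay between -0.15 and 0.047 for Glra1, between -0.095 and 0.049 for Slc32a1 and between -0.025 and 0.0039 for Gad1, and the difference in log2 CPM between -0.095 and 0.076 for Glra1, -0.12 and 0.060 for Glrb, -0.026 and 0.043 for Slc32a1, and -0.017 and 0.0060 for Gad1. Fitted values that kept their sign lay between -0.31 and -0.082 for Slc6a5, -0.12 and -0.0025 for Slc6a11, -0.091 and -0.044 for Slc6a9, -0.070 and -0.0086 for Glra2, -0.049 and -0.0075 for Glrb, and -0.045 and -0.0048 for Gad2. Depth limits Glra1 most, at 87 to 203 counts. The interaction without litter F could not be fitted.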
